A study of Mus musculus with 4 samples.

Results

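The cells described here were the ON bipolar cells of the mouse retina, taken from 4 single-cell RNA libraries by 3 genes of these cells. A barcode was a member when it held at least 4 UMIs (unique molecular identifiers, each standing for 1 captured RNA molecule) of Trpm1, Isl1 and Grm6 together, from at least 2 of these genes. It also had at most 1 UMI of Grik1, a glutamate receptor gene of OFF bipolar cells, and at most 5 UMIs of Rlbp1, a gene of Müller glia. There were 214 members among 19716 barcodes that passed the filters on depth and mitochondrial RNA. Control 1 held 68 of 5868, Control 2 held 26 of 2438, Diabetic 1 held 90 of 7891 and Diabetic 2 held 30 of 3519. The members were further split by Prkca, the gene of protein kinase C alpha, into 166 with at least 1 Prkca UMI (Prkca-positive) and 48 with none (Prkca-negative).

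The study set retinas labelled Diabetic against retinas labelled Ctrl, called Control here, with 2 libraries of each. Cells had been enriched with beads against CD31, a surface protein of endothelial cells, so bipolar cells were not the cells the enrichment was made for. The mouse strain, age, diabetes model and its duration are not given in the sources used here. The labels do not tell whether a group's 2 libraries stem from different animals, so p-values measure only the spread between these libraries, which may be technical.

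ON bipolar cells are interneurons that receive glutamate from photoreceptors through the metabotropic receptor mGluR6, the product of Grm6. In darkness the receptor acts through the G protein Go to keep the cation channel TRPM1 closed. Light lowers glutamate release, TRPM1 opens and the cell depolarises. Rod bipolar cells, which carry protein kinase C alpha, serve rods, and several types of cone ON bipolar cell serve cones.

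The upstream sequences of 3 genes are shown because Trpm1 and Grm6 helped to define the members, and Cabp5, a calcium-binding protein gene of bipolar cells, was read in both Prkca classes. Trpm1 lies at chr7:64153835-64269775 on the plus strand, Grm6 at chr11:50850685-50866208 on the plus strand and Isl1, a homeobox transcription factor gene, at chr13:116298281-116309689 on the minus strand (GRCm38, GENCODE annotation). Each line below gives the 250 bases before a RefSeq transcript start (GRCm38.p6, plus strand), at chr7:64153585-64153834 for Trpm1, chr11:50850435-50850684 for Grm6 and chr7:13397905-13398154 for Cabp5. Capitals mark TAATCC, the core letters bound by the homeobox factors CRX and OTX2, or its reverse complement GGATTA.
Trpm1: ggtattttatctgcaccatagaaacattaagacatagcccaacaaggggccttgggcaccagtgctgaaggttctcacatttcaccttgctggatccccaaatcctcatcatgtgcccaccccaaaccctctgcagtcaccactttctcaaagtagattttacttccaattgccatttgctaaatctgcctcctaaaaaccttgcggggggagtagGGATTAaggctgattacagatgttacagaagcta
Grm6: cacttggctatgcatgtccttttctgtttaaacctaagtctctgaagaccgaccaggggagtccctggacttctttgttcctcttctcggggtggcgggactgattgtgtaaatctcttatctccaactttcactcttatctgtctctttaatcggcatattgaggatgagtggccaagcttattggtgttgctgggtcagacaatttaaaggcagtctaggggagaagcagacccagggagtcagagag
Cabp5: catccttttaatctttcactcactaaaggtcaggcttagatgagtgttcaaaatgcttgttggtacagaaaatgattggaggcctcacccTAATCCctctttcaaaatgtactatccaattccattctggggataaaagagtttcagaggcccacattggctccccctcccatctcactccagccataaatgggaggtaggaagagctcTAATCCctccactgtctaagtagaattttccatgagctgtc
Both strands were searched. Trpm1 held GGATTA at 1 place, Cabp5 held TAATCC at 2 places and Grm6 held neither in this window. The same search covered the 250 bases before each start of all genes. Of 15 mGluR6 cascade genes, 11 matched a RefSeq window and 2 of these held the core, against 7.2% of 27025 genes. Cabp5 was the 1 of 10 matched rod bipolar marker genes that held it. The 250 bases before a second Trpm1 start, at chr7:64185209-64185458, held neither form. A match describes letters only.

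Of the rule's own genes, Trpm1 was found in 209 members, Isl1 in 194 and Grm6 in 154, and 129 held all 3, which the rule sets and which does not check the label. At the edge of the rule, 22 members had a sum of exactly 4, while 23 barcodes with a sum of 3 met the other conditions. A further 12 barcodes were outside only by Grik1, and 148 were outside by Rlbp1, whatever their Grik1 count. No member barcode occurred in more than 1 library. The label was checked against genes outside the rule, except that the OFF bipolar and Müller glia lists below also hold Grik1 and Rlbp1. The members were of different kinds by their depth and their rod RNA. In 132 members the UMIs of 16 rod genes made up at most 3% of the barcode, and these are called rod-poor members. In the other 82 this share ran from 3.04% to 13.8%, with a median of 8.06%. Rods themselves had a median share of 8.41%, 8.36%, 7.5% and 7.23% in Control 1, Control 2, Diabetic 1 and Diabetic 2. Rod-poor members had a median of 4602 UMIs and of 5366 CPM, the usual count-per-total scale on which a gene's UMIs are divided by all UMIs of the same cell or sum, of the 3 rule genes. The other 82 had a median of 518 CPM of the rule genes.

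The deepest barcodes stood furthest from the label. Over 20000 UMIs were held by 40 members, all of them Prkca-positive, with rod shares from 5.21% to 13.8%. Their median Prkca level was 241 CPM, against 1487 CPM in the 174 other members, and rods summed per library had 189, 209.6, 186 and 209.9 CPM. These 40 barcodes supplied 64.3% of all UMIs of the members. Counts summed over all members were therefore mostly those of barcodes with a rod share like that of rods. The median Pcp2 level was 250.4 CPM in these 40, against 3309 CPM in the 174 others. Scrublet, a doublet caller, called 4 of the 40 and 10 of the 214 members.

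**Figure D1:**
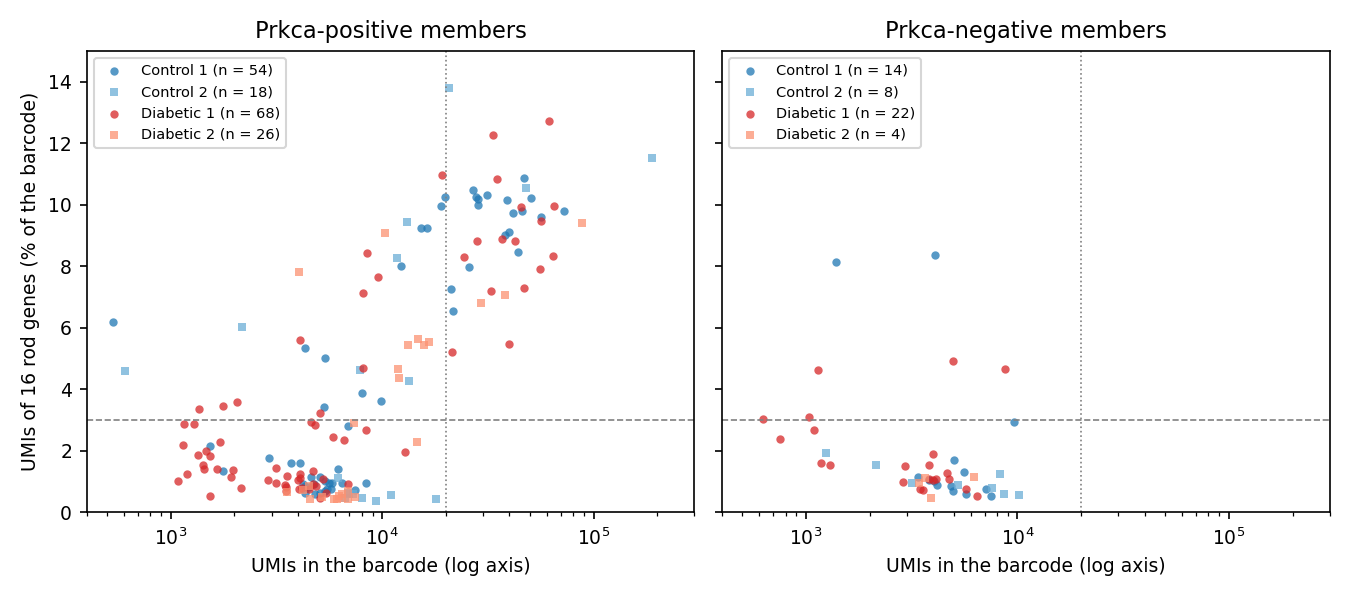
Share of UMIs from 16 rod genes (y axis, %) against UMIs per barcode (x axis, log) for each member, in separate panels for Prkca-positive and Prkca-negative members and coloured by library. The dashed line is at 3% and the dotted line at 20000 UMIs. All 40 members beyond 20000 UMIs are Prkca-positive and lie above 5% rod share.

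Between Diabetic and Control, levels of single genes and list medians are over all members unless stated. The total of called genes in each comparison below is therefore given over all members and over lower-rod members. These were left after the members above the upper quartile of rod share in their library were removed, so members over 3% remained. Lower-rod members held 391797, 140536, 232091 and 153256 UMIs in Control 1, Control 2, Diabetic 1 and Diabetic 2. Rod-poor members held 190001, 126474, 210300 and 113681, so the part from members over 3% was largest in Control 1. There were 51 lower-rod members of 68 in Control 1, 19 of 26 in Control 2, 67 of 90 in Diabetic 1 and 22 of 30 in Diabetic 2. Levels in rod-poor members are a description with no test, because their limit of 3% was set after the values had been seen.

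Among markers of other cell types, the 9 microglia genes summed to 15.8, 0, 28.5 and 8.80 CPM in the rod-poor members of Control 1, Control 2, Diabetic 1 and Diabetic 2, with P2ry12 and C1qa at 0 in all 4 libraries. The 9 amacrine genes summed to 89.5, 94.9, 214 and 44.0 CPM, with Tfap2a at 0 in all 4 libraries. The 12 genes of OFF bipolar cells summed to 221, 340, 176 and 264 CPM, with Tacr3 and Erbb4 at 0 in all 4. Cabp1 of this list was found in 9 of 25, 6 of 9, 7 of 42 and 8 of 15 rod-poor Prkca-positive cells. The list includes Grik1, which the rule held down. The 12 Müller glia genes summed to 2137, 1431, 2411 and 1381 CPM and to 1153, 918, 1542 and 1441 CPM in rods. They include Rlbp1, which was limited to 5 UMIs in members and 2 in rods. The 10 endothelial genes summed to 142, 150.2, 366 and 167 CPM and to 2775, 2863, 3369 and 4005 CPM in rods. The 6 neutrophil genes separated the groups, at 5.26, 0, 66.6 and 44.0 CPM, and at 33.7, 22.6, 1270 and 1863 CPM in rods. Their part in any difference between groups was not tested.

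Trpm1 and Grm6, the channel and the receptor of the cascade, helped to choose the members, so their levels are a description. In rod-poor members Trpm1 had 3637, 3163, 3633 and 3554 CPM in Control 1, Control 2, Diabetic 1 and Diabetic 2, the library order used throughout. Grm6 had 405, 482, 371 and 466 CPM in rod-poor members. Over all members Trpm1 had 945, 1118, 989 and 1596 CPM and Grm6 had 110, 152, 114 and 214 CPM. In rods Grm6 had 0.750 to 1.98 CPM, but rods were chosen with at most 1 UMI of the rule's marker genes Trpm1, Isl1 and Grm6 together. This low level was therefore set in advance.

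The G protein subunits were not part of the rule. Gng13, a gamma subunit, had 4721, 6136, 3348 and 5093 CPM in rod-poor members and 16.2 to 22.6 CPM in rods. Gnao1, the Go alpha subunit, had 1163, 1360, 1374 and 1355 CPM in rod-poor members and 25.1 to 33.7 CPM in rods. Gnb3, a beta subunit, had 1332, 1763, 1217 and 1583 CPM, with 44.9 to 110.2 CPM in rods. Every rod-poor value was above every rod value for these 3 genes. The same held for Pcp2, a regulator of Go, at 6542, 6657, 5877 and 7855 CPM against 17.1 to 27.9 CPM.

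The regulators that end the G protein signal were of both kinds. Rgs11 had 247, 300.5, 224 and 290.3 CPM in rod-poor members and 1.92 to 2.49 CPM in rods. Rgs7 had 205, 126, 228 and 185 CPM in rod-poor members and 0.500 to 1.39 CPM in rods. Gpr179, the orphan receptor that anchors them, had 621, 554, 613 and 607 CPM in rod-poor members and 0.786 to 2.16 CPM in rods. Gnb5, their shared beta subunit, overlapped with rods, at 574, 514, 485 and 651 CPM against 643 to 730.2 CPM. Rgs9bp was higher in every rod library, at 477 to 616 CPM, than in any rod-poor one, at 123 to 184 CPM. Ric8b, a G protein exchange factor gene, was likewise higher in rods, at 129 to 169 CPM against 47.4 to 71.3 CPM. Nyx, which encodes nyctalopin, had 63.2 to 90.3 CPM in rod-poor members and at most 0.432 CPM in rods. Lrit3 had no UMI in rod-poor members of any library and 14.3 to 20.2 CPM in rods.

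**Figure D2:**
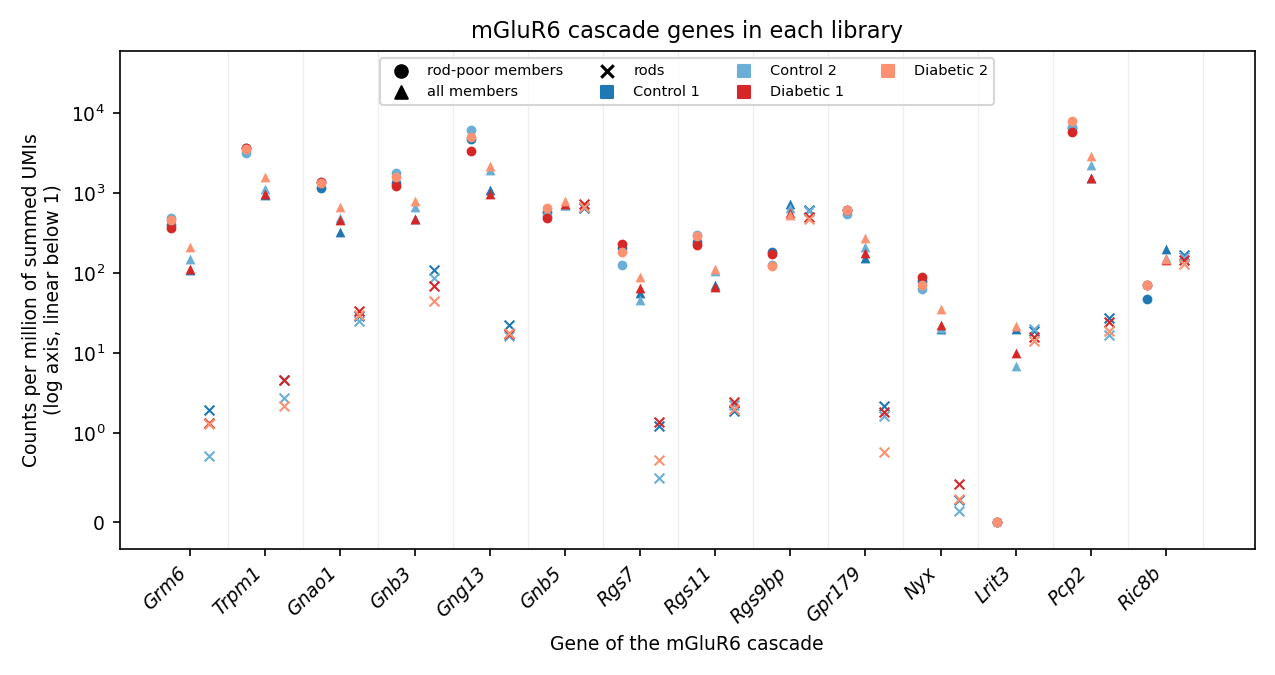
CPM of 14 genes of the mGluR6 cascade (y axis, log, linear below 1) in rod-poor members (circles), all members (triangles) and rods (crosses), with each of the 4 libraries as a point. Gng13, Gnao1 and Gpr179 lie far above rods in rod-poor members, while Rgs9bp, Lrit3 and Ric8b lie below their level in rods.

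The Prkca split divided the members into candidates for rod bipolar cells and other ON cells. Prkca-positive members made up 79.4% of Control 1 (Wilson 95% interval 68.4% to 87.3%), 69.2% of Control 2 (50.01% to 83.5%), 75.6% of Diabetic 1 (65.8% to 83.3%) and 86.7% of Diabetic 2 (70.3% to 94.7%). Intervals cover counting error only. The Control mean was 74.3% ± 7.20 (SD, n = 2) and the Diabetic mean 81.1% ± 7.86 (SD, n = 2), a difference of 6.79 percentage points. An exact two-sided permutation test over the libraries gave p = 0.667, and 4 libraries allow no p below 0.333. After each cell was thinned to 2000 UMIs the shares were 59.4%, 54.2%, 53.03% and 70.0%, with 4, 2, 24 and 0 shallower members left out. Rods had a Prkca UMI in 44.3%, 54.2%, 46.5% and 57.2% of cells, and in 31.2%, 33.7%, 30.5% and 33.2% when thinned, so a Prkca UMI alone did not single out a rod bipolar cell. The median depth was 5740, 7928, 4086 and 6660 UMIs in members and 2918, 4008, 3493 and 4785 in rods.

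**Figure D3:**
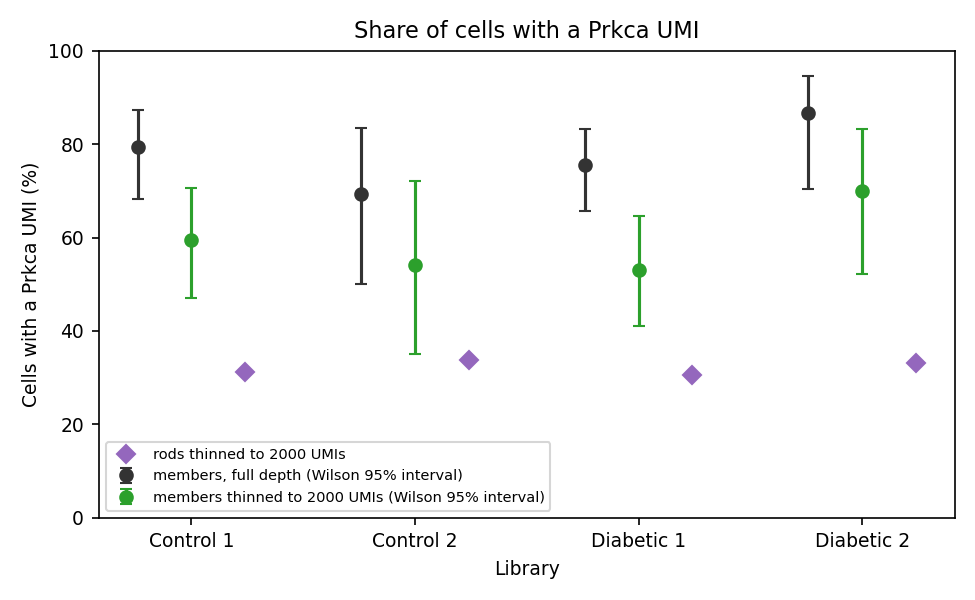
Share of cells with a Prkca UMI (y axis, %) in each library, for members at full depth, members thinned to 2000 UMIs and rods thinned to 2000 UMIs. Bars are Wilson 95% intervals. The thinned members lie between 53.03% and 70.0% and the thinned rods between 30.5% and 33.7%.

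In the lower-rod members the Prkca classes differed in genes that mark rod and cone ON bipolar cells. Counts were summed per library and class and fitted with the library as a block (edgeR quasi-likelihood test, Benjamini-Hochberg adjustment, adjusted p under 0.05). Prkca-positive cells had 85 genes higher (5.18% of 1642 tested) and 67 lower (4.08%). Of the 13 genes of the rod bipolar list, 12 passed the filter on low counts and 9 were called higher, with a median log2 fold change of 2.66 against 0.03 over all genes tested. Of the 23 genes of the cone ON bipolar list, 3 passed the filter and 2 were called lower. A gene that passed only through the class where it is high had to differ, so these counts do not speak for the whole lists.

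Pcp2, at chr8:3623371-3625545 on the minus strand, had 4160, 7924, 7486 and 6630 CPM in Prkca-positive and 1125, 2205, 1230 and 1859 CPM in Prkca-negative lower-rod cells. The classes did not overlap, and the log2 fold change was 2.12 ± 0.23 (SE, edgeR adjusted p = 3.27e-07). Sebox, a homeobox gene, had 359, 615, 579.6 and 551 CPM against 14.1, 21.6, 14.3 and 116 CPM, a log2 fold change of 4.35 ± 0.42 (edgeR adjusted p = 4.48e-08). Car8, a carbonic anhydrase-related gene used as a rod bipolar marker, had 389.8, 880.4, 919 and 676 CPM against 0, 86.5, 28.6 and 232 CPM, with a log2 fold change of 3.82 ± 0.41 (edgeR adjusted p = 2.39e-07). In each of the 3 genes the lowest Prkca-positive library was above the highest Prkca-negative library. Sebox had 342 against 5 UMIs and Car8 449 against 10, and the Prkca-negative values of Diabetic 2 came from 4 cells. Sebox and Car8 passed the filter on low counts only through the Prkca-positive cells, so their tests are no independent support.

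Other genes of the list were Vstm2b (log2 fold change 3.17), Strip2 (2.67), Ccdc136 (2.64) and Qpct (1.64), all called higher. Strip2 was found in 15 of 25, 9 of 9, 28 of 42 and 14 of 15 rod-poor Prkca-positive cells. In rod-poor Prkca-negative cells it was found in 2 of 12, 1 of 8, 3 of 17 and 1 of 4. Tpbg, which encodes the trophoblast glycoprotein, had 155 against 1 UMIs, a ratio of summed levels of 44.4 (exact 95% counting interval 7.86 to 1767). Vstm2b had 291 against 10 UMIs. Vstm2b and Tpbg passed the filter on low counts only through the Prkca-positive cells, so their tests are no independent support. Gabrr1 (0.40), a GABA receptor gene, Cabp5 (0.14) and the transcription factor gene Bhlhe23 (-0.12) were not called. In all members these 3 were called lower in Prkca-positive cells, at -1.31, -1.50 and -1.75, and Pcp2 (0.46, edgeR adjusted p = 0.153) and Qpct (-0.06, edgeR adjusted p = 0.932) were not called.

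Among genes chosen by size, Pcp4, a calmodulin regulator, had 1247, 2737, 2325 and 2529 CPM in Prkca-positive and 127, 64.8, 243 and 0 CPM in Prkca-negative lower-rod cells (log2 fold change 4.01 ± 0.33, edgeR adjusted p = 4.92e-09). Adrb1, a beta adrenergic receptor gene (3.79), Adamts5, a metalloproteinase gene (3.59), Nebl (3.38), Il1rap (3.31) and Nhlrc2 (3.23) were also called higher. Cep112 had 135 against 3 UMIs, a ratio of summed levels of 12.9 (exact 95% counting interval 4.32 to 63.4). Each of these 7 genes kept its call in all 4 fits with a library left out. Those fits share libraries with the fit that chose the genes, so they are no independent support. Adrb1, Adamts5, Nebl, Il1rap, Nhlrc2 and Cep112 had 3 to 7 UMIs in Prkca-negative cells. They passed the filter on low counts only through the Prkca-positive cells.

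Scgn and Vsx1, of the 3 cone ON genes tested, were called lower in Prkca-positive cells. Scgn, at chr13:23953456-23991214 on the minus strand, encodes the calcium sensor secretagogin and had 53.01, 74.2, 67.8 and 36.8 CPM in Prkca-positive and 745, 411, 286 and 407 CPM in Prkca-negative lower-rod cells (log2 fold change -2.94 ± 0.34, edgeR adjusted p = 6.54e-07). Vsx1, a homeobox gene of cone bipolar cells, had 9.36, 106, 0 and 51.5 CPM against 492, 648, 257 and 174 CPM (-3.67 ± 0.47, edgeR adjusted p = 2.54e-06). The classes overlapped for neither gene, but both passed the filter on low counts only through the Prkca-negative cells. Their tests are therefore no independent support. Zeb2, a zinc finger transcription factor gene (-3.61), Reln, which encodes the matrix protein reelin (-3.23), and Drd1, a dopamine receptor gene (-3.21), were called lower in Prkca-positive cells. So were Unc13c, a vesicle priming gene (-2.96), Ptprz1 (-2.96), Pcdh9, a protocadherin gene (-2.94), Vipr2, a receptor gene for vasoactive intestinal peptide (-2.87), and Gria2, an AMPA receptor subunit gene (-2.81). Crybg3 (-3.17) and Snhg11 (-3.11) completed the 12 lowest. Each of these 12 passed the filter on low counts through the Prkca-negative cells. None had enough counts to pass through the Prkca-positive cells alone, so their tests are no independent support. Meis2 of the cone ON list was not called (-0.46).

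**Figure D4:**
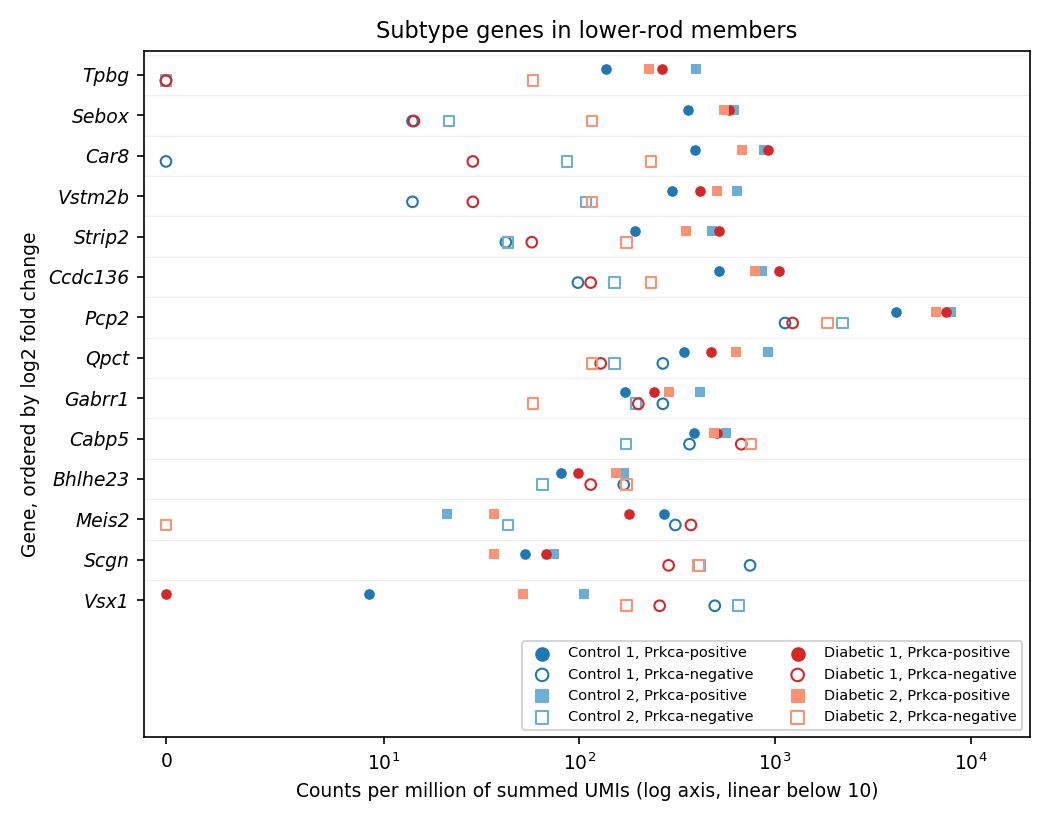
CPM of tested rod bipolar and cone ON genes (x axis, log, linear below 10) in Prkca-positive (filled) and Prkca-negative (open) lower-rod members, with each library as a point. For Pcp2, Sebox and Car8 every filled point lies to the right of every open point, and for Scgn and Vsx1 every filled point lies to the left.

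Cell by cell the 2 markers were mostly apart. Of the 132 rod-poor members, 82 had a Prkca UMI and no Scgn UMI, 27 had Scgn and no Prkca, 9 had both and 14 had neither. Scgn was found in 3 of 25, 1 of 9, 3 of 42 and 2 of 15 rod-poor Prkca-positive cells and in 11 of 12, 6 of 8, 8 of 17 and 2 of 4 Prkca-negative cells. Car8 was found in 25 of 25, 9 of 9, 32 of 42 and 14 of 15 Prkca-positive cells and in 0 of 12, 2 of 8, 1 of 17 and 2 of 4 Prkca-negative cells. In rods, Scgn was found in 0.493% to 0.785% and Car8 in 0.589% to 0.958% of cells. The median depth was 5091, 7279, 3492 and 6237 UMIs in the rod-poor Prkca-positive cells and 4977, 6372, 3796 and 3763 in the rod-poor Prkca-negative cells.

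Part of the cascade also differed between the classes. Rgs7 (1.53, edgeR adjusted p = 0.0186) was called higher in Prkca-positive lower-rod cells beside Pcp2. Among those not called were Gng13 (0.34), Gnao1 (0.63), Gnb3 (-0.31), Gpr179 (0.17), Gnb5 (0.20), Rgs11 (-0.26) and Rgs9bp (0.64). Trpm1, a gene of the rule and so given with no test, had 4439, 4214, 4371 and 4064 CPM in rod-poor Prkca-positive and 2118, 1340, 1713 and 697 CPM in rod-poor Prkca-negative cells. Rgs7 lost its call when Control 2 or Diabetic 1 was left out, while Pcp2 kept its call in all 4 such fits.

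Counts in other lists stand against the 5.18% of all genes called higher and the 4.08% called lower in the lower-rod members. Of the bipolar transcription factor list, 18 genes were tested, with 3 called higher and 4 lower. Sebox and Prdm8 (1.46) were among those called higher in Prkca-positive cells. Vsx1, Nfia (-1.76), Six3 (-1.44) and Lhx4 (-1.14) were called lower. Lhx4 lost its call without Control 2 or Diabetic 2, and Prdm8 and Nfia without Diabetic 1. Of 14 glycolysis genes tested, Aldoc (-1.40), Tpi1 (-1.10) and Pfkp (-0.98) were called lower and none higher, with a list median of -0.45. Of 5 inhibitory receptor genes tested, 1 was called lower. Of 21 ribbon and release genes, Unc13b (1.04) was called higher, which is near the share over all genes, and of 7 channel genes 1 was called higher. The rod list had 8 of 16 genes called higher in the Prkca-positive lower-rod cells, with a median of 0.90, and its part in these calls was not tested.

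Over all members more genes were called. There 577 genes were higher in Prkca-positive cells (13.1% of 4414 tested) and 506 were lower (11.5%). All 16 rod genes were called higher. Of the 577, 560 had a level in rods above that in Prkca-negative members and 261 above that in Prkca-positive members. Of the 506, 88 were in rods above Prkca-positive and 6 above Prkca-negative members. Among lower-rod members, 39 of the 85 higher genes were in rods above Prkca-negative and 22 above Prkca-positive cells. Of the 67 lower genes there, 14 were above Prkca-positive and 0 above Prkca-negative cells. The part of rod RNA in these calls was not tested. Jag1, a Notch ligand gene, had 332 against 1 UMIs, a ratio of summed levels of 27.0 (exact 95% counting interval 4.82 to 1070), with 134 CPM in rods. Ppm1n had 525 against 2 UMIs, a ratio of summed levels of 21.4 (exact 95% counting interval 5.88 to 177), with 192 CPM in rods. Alpl, the alkaline phosphatase gene, had a log2 fold change of 3.59 and 209.5 CPM in rods. Whrn, Frmpd2, Traf3ip3, Bbs9, Tpbg, Hps3, Grb10, Fam160a1 and Eml1 completed the 12 highest, each with 1 UMI in Prkca-negative members. The 12 lowest were Gabbr2, a GABA-B receptor gene (-5.33), Neurod2, a transcription factor gene (-4.76), Sox5 (-4.63), Adcy2 (-4.63), Rab3c (-4.23) and the calcium-binding protein gene Cabp2 (-4.21), with Vsx1, Zeb2, Drd1, Snhg11, Ptprz1 and Scgn. None of the 12 highest or the 12 lowest had enough counts to pass the filter through its low class alone. Of the genes called higher in the lower-rod members, 55.3% were also called higher in all members (8.1% of the genes higher there), and of those called lower 95.5% were (12.6% of the genes lower there). Tgfb2, singled out after its values were seen, was called in opposite directions, at -0.64 in all members and 0.87 in lower-rod members.

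Between Diabetic and Control no gene passed the test over all 4 libraries. edgeR called 0 of 8779 genes (0.0%) at an adjusted p under 0.05, while 381 (4.34%) had an unadjusted p under 0.05. DESeq2 also called 0, with 67 at an unadjusted p under 0.05. In the lower-rod members edgeR called 0 of 4113 genes (0.0%), with 161 (3.91%) at an unadjusted p under 0.05, and DESeq2 called 0, with 22. With 1 library left out in turn, edgeR called 3 to 10 genes higher and 0 to 6 lower over all members. The same edgeR test in the rods of these libraries called 1471 of 16161 genes (9.1%), over 8601 cells. With Control 2 left out, edgeR called 33 genes higher and 159 lower in the lower-rod members, and with Control 1 left out 9 and 5. With either Diabetic library left out it called 0, with 61 genes (without Diabetic 1) and 137 (without Diabetic 2) at an unadjusted p under 0.05. In these fits the lone library of a group was assumed to vary like the others. Over the 4 libraries the rod list had a median log2 fold change of -0.65 in the lower-rod members, with 0 of 16 genes positive. The part of rod RNA in the lower-rod counts was not tested. With 2 libraries a group and 26 members in the smallest, a difference that was not called is not shown to be absent.

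The cascade genes, all 15 of them tested, had a median log2 fold change of 0.20 against 0.00 over all genes and -0.21 in rods. In the lower-rod members their median was 0.20 over 14 tested. Groups did not overlap in 5 of the 15, against 34.3% of all genes. Pcp2 had 1527 and 2216 CPM in the Control libraries and 1561 and 2942 CPM in Diabetic members (0.20 ± 0.35, edgeR adjusted p = 0.998). Diabetic 2 was highest. Barcodes over 20000 UMIs supplied 68.8%, 59.6%, 70.1% and 42.4% of the members' UMIs, least in Diabetic 2. Without these barcodes edgeR called 1 gene higher and 1 lower over the 4 libraries. Gng13 (-0.03) and Gnao1 (0.43) were not called either.

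Ribbon synapse and release genes (25 tested) had a median of -0.08, GABA and glycine receptors (9 tested) 0.04, channels (13 tested) 0.00 and bipolar transcription factors (21 tested) 0.25. The rod bipolar list (12 tested) had 0.20 and the cone ON list (9 tested) -0.28. In the lower-rod members these 6 medians were -0.15, -0.09, -0.06, 0.10, 0.18 and -0.61 in the same order. There 0 of 7 tested cone ON genes were positive. The vesicular glutamate transporter gene Slc17a7 had 1135 and 1033 CPM in the Control libraries and 892 and 1034 CPM in Diabetic members, which overlapped. The vesicle gene Syt1 had 921 and 789 CPM against 960.3 and 1237 CPM, which did not overlap and was not called (0.29 ± 0.27, edgeR adjusted p = 0.998).

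Heat shock genes had a median of -0.41 over 18 tested, -0.33 in the lower-rod members and -0.46 in rods. Groups did not overlap in 9 of them with Diabetic lower and in 1 with Diabetic higher, against 12.8% and 21.6% of all genes. Hsp90aa1, a chaperone gene, had 3397 and 2583 CPM in the Control libraries and 2247 and 2046 CPM in Diabetic members (-0.54 ± 0.32, edgeR adjusted p = 0.998), and changed by -0.60 in rods (edgeR adjusted p = 0.0116).

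Immediate early genes had a median of 0.62 over 16 tested, 0.34 in the lower-rod members and 0.68 in rods. Groups did not overlap in 7 of the 16, all with Diabetic higher, against 21.6% of all genes. Without the Scrublet doublets the median was -0.02, and without Control 1 it was 1.42. Egr1, a transcription factor gene singled out after its values were seen, had 42.1 and 11.5 CPM in the Control libraries and 103 and 146 CPM in Diabetic members, a log2 fold change of 1.91 ± 0.37 (edgeR adjusted p = 0.231). In the lower-rod members its change was 2.68 (edgeR adjusted p = 0.176), and in rods 1.06 (edgeR adjusted p = 0.00248). Fos had 194 and 96.9 CPM against 233 and 277 CPM (0.68), while Btg2 had 232 and 198 CPM against 205 and 209 CPM (-0.13).

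Mt1, a metallothionein gene also singled out after its values were seen, had 89.2 and 124 CPM in the Control libraries and 253 and 263 CPM in Diabetic members (1.24 ± 0.25, edgeR adjusted p = 0.239), with 1.02 in rods (edgeR adjusted p = 0.00154). S100a9, a neutrophil gene, had no UMI in Control members and 24.4 and 24.4 CPM in Diabetic members, and Lcn2 had 4.01 and 2.31 CPM against 39.6 and 16.3 CPM. Both were called higher in rods, beside the neutrophil list given above. Mitochondrially encoded respiratory genes had a median of -0.13, nuclear ones -0.08, glycolysis 0.00, antioxidant genes 0.10 and endoplasmic reticulum stress genes -0.16. In the lower-rod members these medians were -0.04, 0.11, -0.03, 0.24 and -0.17 in the same order.

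**Figure D5:**
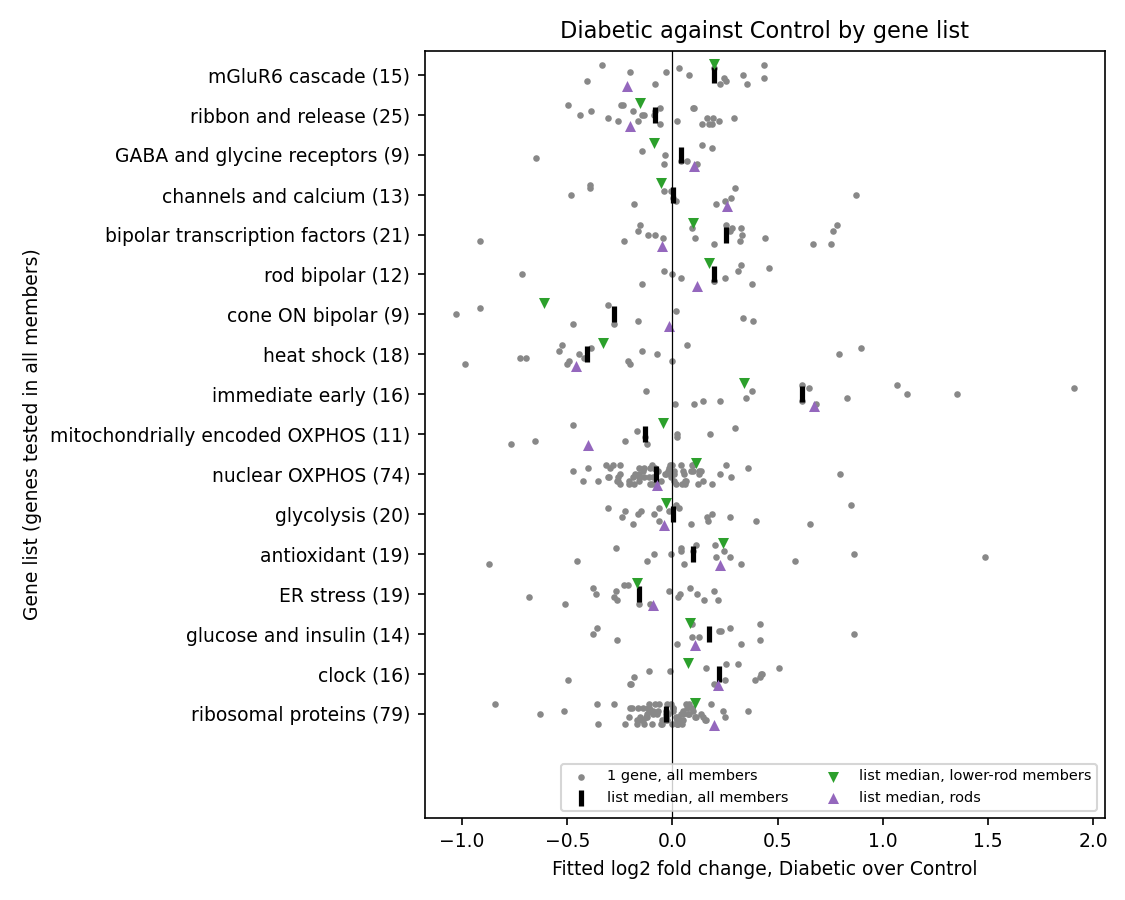
Log2 fold change of Diabetic over Control (x axis) for each tested gene by list in all members, with list medians in all members (bars), lower-rod members (green triangles) and rods (purple triangles). No single gene was called. The heat shock median lies at -0.41 and the immediate early median at 0.62 in all members.

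Whether the Diabetic difference itself differed between classes was tested with an interaction term. Between Prkca-positive and Prkca-negative members 1 gene of 5936 (0.0168%) was called, Reln. Reln had 9.71, 15.5, 23.1 and 76.9 CPM in Prkca-positive and 548, 584, 187 and 232 CPM in Prkca-negative members, so Diabetic was higher in the first class and lower in the second. The difference of log2 fold changes was 3.16 ± 0.68 (edgeR adjusted p = 0.0232), and it was not called by DESeq2 or in the lower-rod members. Against rods, 8 of 15044 genes (0.0532%) were called by edgeR and 0 by DESeq2. Pde10a, a phosphodiesterase gene, had 69.2, 92.2, 36.6 and 67.8 CPM in members and 11.87, 12, 23.9 and 23.2 CPM in rods (difference -1.75 ± 0.33, edgeR adjusted p = 5.92e-04). Gabrr2, a GABA receptor gene, had 66.2, 132, 73.2 and 141 CPM in members and 8.29, 6.75, 2.40 and 2.62 CPM in rods (difference 1.69 ± 0.37, edgeR adjusted p = 0.0129). The comparison with OFF cone bipolar cells was not run, since 6, 4, 18 and 4 such cells were found in the 4 libraries.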

How the data were processed

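Single-cell 3′ RNA libraries of 2 Control and 2 Diabetic retinal samples enriched for CD31 were used as the raw UMI counts per gene and barcode that the authors deposited. Counts came from Cell Ranger 7.0.0, per the submitters' processing notes, which also name STAR 2.7.10b and the build mm10. The annotation release is not given in the sources used here. A barcode passed with 500 or more UMIs, 300 or more genes and no more than 20% of UMIs from mitochondrial genes. The members held 997563, 433622, 984053 and 368488 UMIs in Control 1, Control 2, Diabetic 1 and Diabetic 2, and these totals limit the precision.

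Counts were summed per library and class and tested with edgeR 4.0.16 (R 4.3.3, TMM factors, filterByExpr, quasi-likelihood F test, Benjamini-Hochberg adjustment over all genes tested, adjusted p under 0.05). The Prkca split and the interaction fits held the library as a block. DESeq2 1.42.0 was an alternative. Shares were tested with scipy 1.17.1. Scripts were tested on simulated data.

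Rods were cells with at least 10 UMIs each from 2 sets of rod genes and few of other types. They held at most 1 UMI of Trpm1, Isl1 and Grm6 together and at most 2 of Rlbp1, with limits on Grik1 and Arr3 too. Doublet calls (Scrublet in scanpy 1.11.5, at 0.8% per 1000 barcodes) were kept in, and leaving them out was an alternative. Other alternatives changed the filter, normalization, member thresholds, rod content, depth per cell and libraries. Named genes were the cascade, the members' rule genes, the 12 highest and 12 lowest called genes by log2 fold change averaging 20 CPM or more with 1 sign in all 4 libraries, up to 4 called members of each list, or its 2 highest in CPM where none was called, and the tested subtype markers. A few genes that this rule names are not reported here. The members and the gene lists were chosen with earlier results of these data known.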

Additional observations from a re-analysis of the deposited data

Results flagged for a closer look

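Reln had a Diabetic difference that differed between the Prkca classes, by 3.16 ± 0.68 on the log2 scale, and it rested on 9, 6, 21 and 27 UMIs in Prkca-positive and 39, 27, 14 and 4 UMIs in Prkca-negative members.

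The Diabetic difference differed between members and rods in 8 genes, which include Gabrr2 given above. Ackr1, a chemokine receptor gene, had 30.1, 25.4, 54.9 and 57.0 CPM in members and 5.81, 2.87, 38.1 and 66.0 CPM in rods, a difference of -2.37 ± 0.40. Opn1sw, the short-wave cone opsin gene, had 406, 187, 265 and 43.4 CPM in members and 107, 57.5, 159.5 and 54.3 CPM in rods (-1.41 ± 0.26). Pde10a differed by -1.75 ± 0.33. Ctla2a had 14.03, 0, 232 and 5.43 CPM in members and 134, 109, 366 and 424 CPM in rods (2.02 ± 0.42), with Diabetic 1 alone high among the members. Gsto1 differed by 7.18 ± 1.12, with 2.00, 2.31, 4.07 and 5.43 CPM in members and 347, 1.5, 3.36 and 3.58 CPM in rods, where Control 1 alone was high. Gsta4, a glutathione transferase gene, had 15.04, 13.8, 39.6 and 48.9 CPM in members and 44.1, 18.0, 23.5 and 25.1 CPM in rods (2.06 ± 0.43), and Zfp868 had 6.01, 4.61, 34.5 and 27.1 CPM in members and 19.5, 19.0, 19.3 and 22.4 CPM in rods (2.42 ± 0.57). DESeq2 called none of the genes tested here.

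Barcodes outside the filters also met the gene rule. Of the barcodes outside the filters, 8 of 526 met it in Control 1 (1.52%) and 4 of 653 in Control 2 (0.613%). Among passing barcodes 1.16%, 1.07%, 1.14% and 0.853% were members in Control 1, Control 2, Diabetic 1 and Diabetic 2. Outside the filters, Diabetic 1 had 0 of 100 that met the rule and Diabetic 2 had 2 of 415.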

How the results depend on the processing

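The count of genes higher in Diabetic, 0 over all members, was 17 with no filter on low counts, 4 without Scrublet doublets, 1 without members over 20000 UMIs, 1 in rod-poor members and 3 to 10 with a library left out. The count lower, also 0, was 5, 0, 1, 5 and 0 to 6 in the same order. With the replicate block the counts were 16 and 6. Same-numbered libraries had a correlation of deviations of 0.0886, so the numbers were not taken to pair them. The genes higher in Prkca-positive members, 577, were 909 with no filter, 368 with a sum of at least 6 UMIs, 55 under stricter limits on other cell types, 85 in lower-rod members, 81 after thinning, 163 without members over 20000 UMIs, 108 in rod-poor members and 350 to 572 with a library left out. The genes lower, 506, were 295 at a sum of at least 6, 35 under stricter limits, 67 in lower-rod members, 57 after thinning, 124 without members over 20000 UMIs, 77 in rod-poor members and 348 to 561 with a library left out. The interaction between Prkca classes called 0 under DESeq2, no filter, lower-rod, thinned and rod-poor members. That against rods called 0 under DESeq2, 5 in lower-rod members and 0 after thinning. The Prkca-positive share difference was -0.453 points under stricter limits. Causes were not tested.

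Gabrr1 turned to 0.534 under stricter limits, 0.398 in lower-rod members, 0.875 after thinning, 0.275 without members over 20000 UMIs and 0.729 in rod-poor members. In the same order Cabp5 turned to 0.0217, 0.144, 0.781, 0.00869 and 0.443, and Qpct to 1.24, 1.64, 2.61, 1.52 and 2.03. Bhlhe23 was 0.309 in rod-poor members and Meis2 -0.973 after thinning. Of 686 values of the 52 genes named in the Prkca split, 619 kept direction and call. Of 467 list medians, 358 stayed within their spread. The alternatives without members over 20000 UMIs, in rod-poor members, and with a library left out of the lower-rod members were chosen after seeing the data. With 26 to 90 members a library, low genes could not be tested.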
